A study of Arabidopsis thaliana with 12 samples.

Results

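COR27 and COR28 are paralogous Arabidopsis thaliana genes for small proteins that link the cold response to the circadian clock. They were followed here as 2 of 22746 tested probe sets, 1 for COR27 (AT5G42900) and 1 for COR28 (AT4G33980). Both were taken by their array identifiers. The array annotation gives exactly 1 gene for each of them. It lists COR28 under its locus number only, and COR28 is the name in common use for that locus.

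Transcript levels were measured with Affymetrix ATH1 arrays in whole seedlings of 14 days. The rcf1-1 mutant carries a lesion in RCF1, the gene of a DEAD-box RNA helicase, and is set against a wild type that is Columbia gl1 with a CBF2::LUC reporter transgene. The labels give that background for the wild type only. Seedlings of both genotypes were grown on Murashige and Skoog agar with sucrose at 21 °C with 16 h light and 8 h dark, and were kept at 4 °C for 0 h, 12 h or 24 h. The 6 groups are therefore rcf1-1 and wild type (WT) without chilling, rcf1-1 and WT after 12 h at 4 °C, and rcf1-1 and WT after 24 h at 4 °C. Each group has 2 arrays, labelled as biological replicates.

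COR27 and COR28 are known as genes whose transcripts peak late in the day and are held down in the morning by the clock protein CCA1. Their proteins in turn repress the clock genes PRR5 and TOC1, take part in blue-light signalling with CRY2, COP1 and HY5, and lower freezing tolerance. Both are also classical cold-regulated (COR) genes. Transcripts of such genes move with the hour of the day as well as with temperature. Neither the hour of harvest nor the light regime in the cold is given, and there is no unchilled group at 12 h. In comparisons between times, cold and clock phase therefore cannot be told apart.

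The data are log2 values from robust multi-array averaging (RMA), 1 per probe set and array. Array medians lay between 4.03 and 4.22 and array maxima between 12.8 and 13.4. At 0 h both genes lay under all array medians, at percentiles of 1.6 to 19.3 among the probe sets of an array. Such signals are called close to the lowest ones, and a fold change from them is worded as at least that size. This wording does not cover the sampling error of the fit. The replicates of a group had Pearson's r over probe sets of 0.989 to 0.996 in the 4 groups at 0 h and 12 h, and of 0.954 and 0.955 in those at 24 h. The replicate 2 arrays of both genotypes at 24 h stood apart. The 5′ minus 3′ difference of the GAPDH control was -5.13 to -4.45 on these 2 arrays, against -1.06 to -0.29 on the other 10. Differences that use 24 h are therefore also given without both arrays, in a fit in which each lone 24 h array is assumed to vary like the other groups. Leaf markers were high. RCA, the gene of Rubisco activase, had group means of 11.8 to 12.8, and LHCB4.2, a light-harvesting gene, 9.25 to 12.1. The root hair expansin genes EXPA7 and EXPA18 had group means of 4.14 to 5.28. No seed or flower marker was paired with a probe set. As whole seedlings were measured, fewer cells of a type and less RNA per cell cannot be told apart.

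In rcf1-1, COR27 read 2.55 and 2.22 at 0 h, 9.88 and 9.91 at 12 h, and 9.01 and 8.01 at 24 h (log2 values, replicates 1 and 2). In WT it read 2.63 and 2.65 at 0 h, 9.99 and 10.3 at 12 h, and 7.36 and 6.31 at 24 h. COR27 was thus near the lowest signals before chilling, high at 12 h in both genotypes, and at 24 h higher on each rcf1-1 array than on either WT array.

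In rcf1-1, COR28 read 2.45 and 2.50 at 0 h, 7.31 and 7.70 at 12 h, and 5.74 and 4.24 at 24 h. In WT it read 2.20 and 2.66 at 0 h, 7.88 and 7.94 at 12 h, and 3.77 and 3.25 at 24 h. The genotypes overlapped at 0 h. At 24 h both rcf1-1 arrays lay above both WT arrays, and both WT arrays lay below the array medians.

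**Figure D1:**
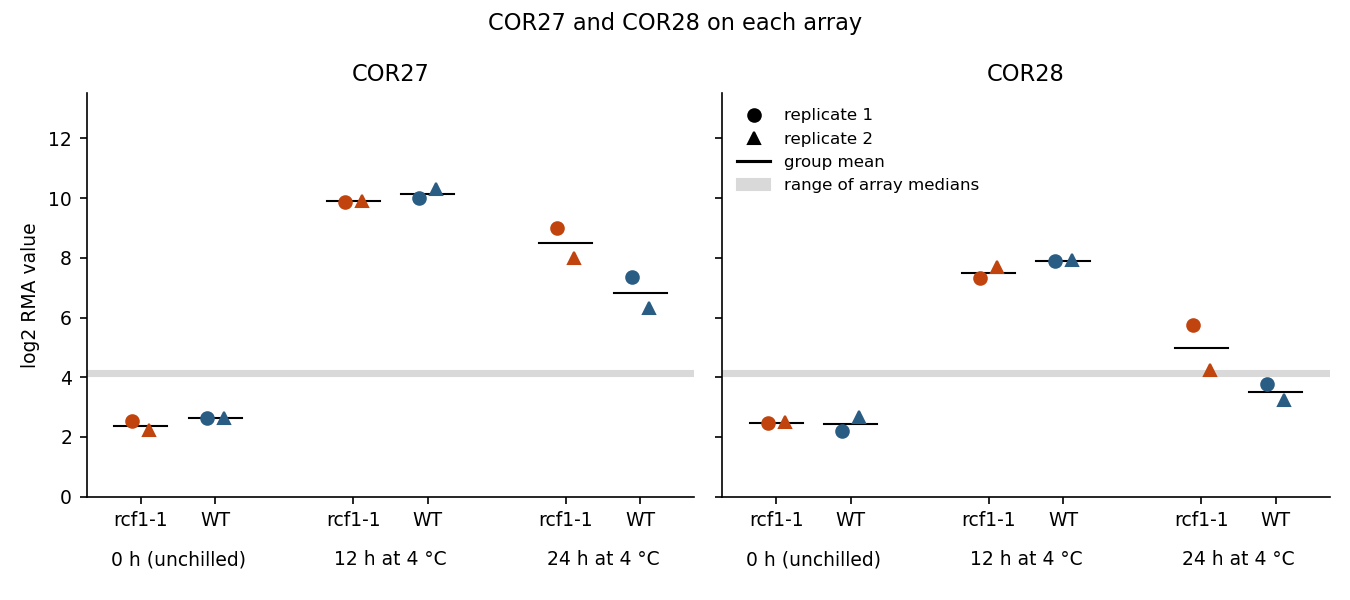
Log2 RMA values of COR27 (left) and COR28 (right) on each of the 12 arrays, by genotype and time at 4 °C; circles are replicate 1, triangles replicate 2, black lines group means, and the grey band is the range of array medians. Both genes are below the band at 0 h and far above it at 12 h, and at 24 h the rcf1-1 arrays lie above the WT arrays.

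Ordered by mean, COR27 ran from rcf1-1 at 0 h (2.38 ± 0.23, SD, n = 2) and WT at 0 h (2.64 ± 0.01) through WT at 24 h (6.83 ± 0.74) and rcf1-1 at 24 h (8.51 ± 0.71) to rcf1-1 at 12 h (9.90 ± 0.02) and WT at 12 h (10.15 ± 0.23). COR28 ran from WT at 0 h (2.43 ± 0.33) and rcf1-1 at 0 h (2.47 ± 0.03) through WT at 24 h (3.51 ± 0.36) and rcf1-1 at 24 h (4.99 ± 1.07) to rcf1-1 at 12 h (7.51 ± 0.28) and WT at 12 h (7.91 ± 0.04). In both orders every chilled group stood above both unchilled groups, and WT at 24 h was the lowest chilled group. The neighbours that differ only in genotype at 0 h, and likewise those at 12 h, were not distinguished by the fit described next.

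The first comparison asked how each genotype responded to 12 h at 4 °C. In rcf1-1, COR27 rose by 7.51 ± 0.37 on the log2 scale (SE of the limma fit, n = 2 per group; adjusted p = 6.73e-07), at least 182-fold. In WT it also rose by 7.51 ± 0.37 (adjusted p = 6.97e-07), at least 183-fold. By size this rise ranked 6 in rcf1-1 and 4 in WT among the 22746 probe sets. COR28 rose by 5.03 ± 0.41 in rcf1-1 (adjusted p = 2.04e-05) and by 5.48 ± 0.41 in WT (adjusted p = 1.27e-05), at least 32.7-fold in rcf1-1 and 44.6-fold in WT. Both genes were thus called in both genotypes, where 12.2% of all probe sets were called in rcf1-1 and 12% in WT. All 4 rises start from levels close to the lowest signals. The 95% intervals of the fit began at 103-fold for COR27 in each genotype. For COR28 they began at 17.4-fold in rcf1-1 and 23.7-fold in WT.

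The fit on all arrays called no difference between the genotypes before chilling or at 12 h. At 0 h, rcf1-1 minus WT was -0.25 for COR27 (95% interval -1.08 to 0.57) and 0.05 for COR28 (-0.87 to 0.96), with adjusted p = 1.00 for each. At 12 h it was -0.26 for COR27 (-1.08 to 0.57; adjusted p = 0.919) and -0.40 for COR28 (-1.32 to 0.51; adjusted p = 0.849). At 0 h 0.11% of all probe sets were called, and at 12 h 1.35%. On the arrays themselves, both rcf1-1 arrays lay below both WT arrays at 12 h for both genes, and at 0 h for COR27. With the compared arrays alone, the 12 h difference was -0.26 ± 0.11 for COR27 (adjusted p = 0.134). It was -0.40 ± 0.14 for COR28 (adjusted p = 0.0606), and neither was called. In that fit 3874 of 22746 probe sets were called. The 0 h values lie where differences are hard to measure. The difference between the genotypes' 12 h responses was -0.0025 for COR27 (-1.17 to 1.17) and -0.45 for COR28 (-1.74 to 0.84), where 0.0879% of all probe sets were called, and neither member was.

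The second comparison asked what the genotypes retained at 24 h. COR27 was still raised over 0 h in rcf1-1 by 6.12 ± 0.37 (adjusted p = 2.75e-06), at least 69.7-fold, and in WT by 4.196 ± 0.374 (adjusted p = 6.59e-05), at least 18.3-fold. COR28 was raised over 0 h in rcf1-1 by 2.52 ± 0.41 (adjusted p = 0.00173), at least 5.72-fold. The 95% intervals of the fit began at 39.3-fold for COR27 in rcf1-1 and 10.3-fold in WT. For COR28 in rcf1-1 the interval began at 3.04-fold. In WT the COR28 difference of 24 h over 0 h was 1.08 ± 0.41 and was not called (adjusted p = 0.119; 95% interval 0.17 to 2.00). Of all probe sets, 20.8% were called in rcf1-1 and 13.2% in WT. Without both 24 h replicate 2 arrays, the COR27 difference was 6.62 in rcf1-1 and 4.72 in WT, and that of COR28 was 3.27 in rcf1-1 and 1.34 in WT. All 4 were then called, including COR28 in WT (adjusted p = 8.57e-04), where 34% of all probe sets were called in rcf1-1 and 24.7% in WT.

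Between 12 h and 24 h both genes fell in WT. COR27 was at 6.83 at 24 h against 10.15 at 12 h, a difference of -3.32 ± 0.37 (adjusted p = 7.84e-04). COR28 was at 3.51 at 24 h against 7.91 at 12 h, a difference of -4.40 ± 0.41 (adjusted p = 2.83e-04), and ranked 7 by size among all falls. In rcf1-1, COR28 fell by 2.51 ± 0.41 (adjusted p = 0.00967), while COR27 differed by -1.39 ± 0.37 and was not called (adjusted p = 0.0746; 95% interval -2.21 to -0.56). Of all probe sets, 3.19% were called in rcf1-1 and 4.62% in WT. The COR28 call in rcf1-1 was lost without the 12 h replicate 1 array (adjusted p = 0.0745) or without the 12 h replicate 2 array (adjusted p = 0.132), at differences of -2.71 and -2.32. Without both 24 h replicate 2 arrays, the COR27 difference was -0.89 in rcf1-1 (adjusted p = 0.00771) and -2.79 in WT, and that of COR28 was -1.76 in rcf1-1 and -4.14 in WT. All 4 were then called, where 15.6% of all probe sets were called in rcf1-1 and 12% in WT.

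The third comparison asked whether the mutation altered the level at 24 h. COR27 was higher in rcf1-1 by 1.67 ± 0.37 (adjusted p = 0.022), or 3.19-fold (95% interval 1.80 to 5.66). COR28 differed by 1.48 ± 0.41 and was not called (adjusted p = 0.0565), at 2.79-fold (1.48 to 5.26). The WT arrays lay below the array medians, at percentiles of 45.1 and 33.4 among their probe sets, and this fold is not given as a minimum. Of all probe sets 7.5% were called. In replicate 1 the rcf1-1 minus WT difference was 1.65 for COR27 and 1.98 for COR28. In replicate 2 it was 1.70 for COR27 and 0.98 for COR28. All 4 had the same sign, but both genes were read on the same 4 arrays and replicate numbers were not taken to pair the samples.

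**Figure D2:**
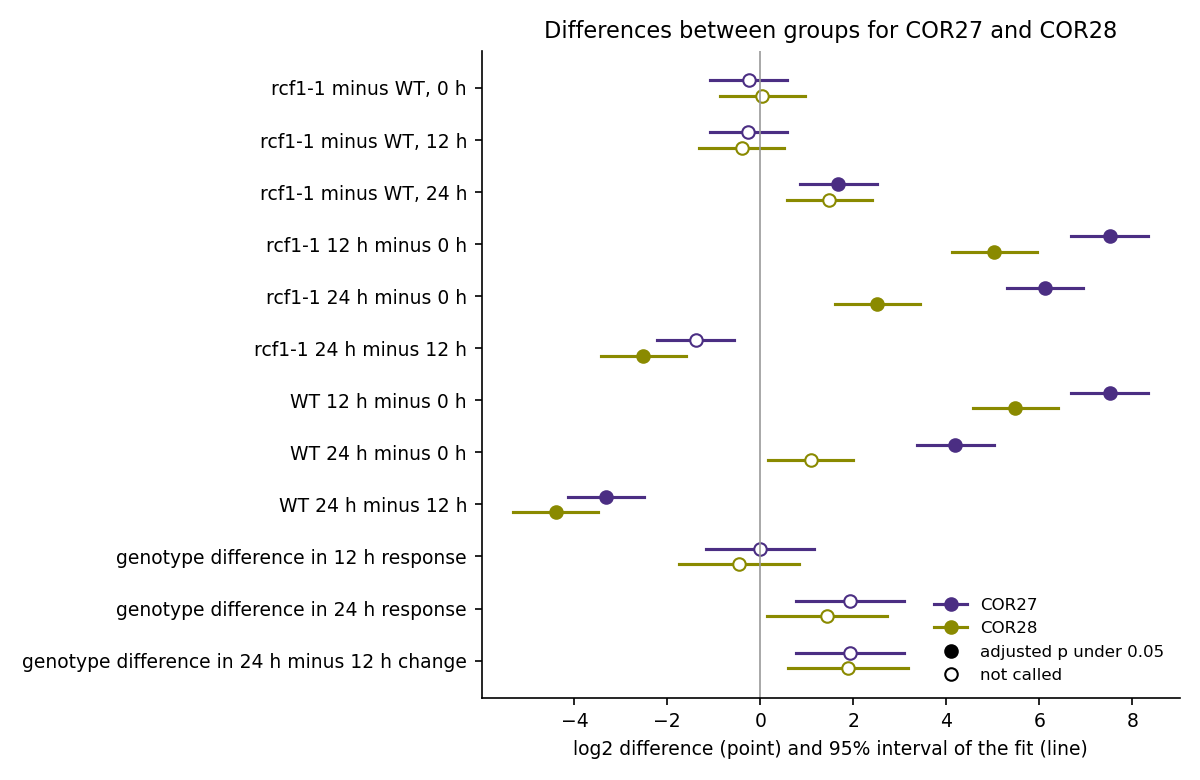
Log2 differences between groups for COR27 and COR28 from the limma fit on all 12 arrays, with 95% intervals as lines; filled points have an adjusted p under 0.05 over all probe sets and open points do not. The genotype differences at 0 h and 12 h straddle 0, those at 24 h lie above it, and the rises at 12 h are the largest differences shown.

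The replicate 2 arrays at 24 h had lower readings of both genes in both genotypes. Replicate 2 minus replicate 1 was -1.002 in rcf1-1 and -1.045 in WT for COR27, and -1.51 in rcf1-1 and -0.51 in WT for COR28. The median of all probe sets was 0.01 in rcf1-1 and 0.03 in WT for the same subtraction. Without both arrays, rcf1-1 minus WT at 24 h was 1.65 ± 0.23 for COR27 (adjusted p = 1.77e-04) and 1.98 ± 0.28 for COR28 (adjusted p = 1.96e-04), and both were called, where 21.4% of all probe sets were called. The COR27 call was lost without WT replicate 2 (1.15; adjusted p = 0.0761) and without rcf1-1 replicate 1 (1.17; adjusted p = 0.0845). It was also lost with array quality weights (adjusted p = 0.124) and with the 4 compared arrays alone (adjusted p = 0.481). The COR28 difference was 0.73 without rcf1-1 replicate 1 and 2.23 without rcf1-1 replicate 2.

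Whether the genotypes differed in the change itself was tested as an interaction. From 12 h to 24 h, the change in rcf1-1 exceeded that in WT by 1.93 ± 0.53 for COR27 (95% interval 0.76 to 3.10; unadjusted p = 0.00399 in limma, adjusted p = 0.215) and by 1.88 ± 0.59 for COR28 (0.59 to 3.17; unadjusted p = 0.00846 in limma, adjusted p = 0.282). From 0 h to 24 h it exceeded it by 1.93 ± 0.53 for COR27 (adjusted p = 0.122) and by 1.43 ± 0.59 for COR28 (adjusted p = 0.327). None of these 4 passed the adjustment over all probe sets, at which 0.255% were called for 12 h to 24 h and 1.1% for 0 h to 24 h. Without both 24 h replicate 2 arrays, all 4 were called, where 8.9% of all probe sets were called for 12 h to 24 h and 13.8% for 0 h to 24 h. The differences were then 1.91 for COR27 (adjusted p = 0.0011) and 2.38 for COR28 (adjusted p = 9.07e-04) from 12 h to 24 h, and 1.91 for COR27 (adjusted p = 6.19e-04) and 1.93 for COR28 (adjusted p = 0.00209) from 0 h to 24 h. Over the 3 times together, an exact permutation of genotype labels within each time did not distinguish the genotypes for COR27 (mean 0.39, two-sided p = 0.417) or COR28 (0.38, p = 0.398; n = 6 arrays per genotype; adjusted p = 0.556 for each over the 4 permutation tests made). The means were 0.38 for COR27 and 0.54 for COR28 without both 24 h replicate 2 arrays. That mean combines the 24 h differences with the 0 h and 12 h ones, which the fit did not distinguish from 0.

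The paralogs were set against each other by subtracting the COR28 value from the COR27 value on each array and comparing the change of this difference, since the level of a probe set cannot be set against that of another. It ranged from 2.11 to 3.77 on the 8 chilled arrays, with a median of 2.81, and from -0.28 to 0.43 on the 4 unchilled arrays, with a median of 0.04. Both genes were close to the lowest signals on the unchilled arrays, which holds the difference near 0 there, so no order is read between the rises of COR27 and COR28. Among chilled arrays, the difference was 3.26 and 3.77 in rcf1-1 and 3.59 and 3.06 in WT at 24 h. At 12 h it was 2.57 and 2.21 in rcf1-1 and 2.11 and 2.37 in WT. Every 24 h array lay above every 12 h array, also with the replicate 1 arrays of 24 h alone, at 3.26 in rcf1-1 and 3.59 in WT. COR28 thus had the larger measured decline, a comparison that was made after the values were seen and was not tested. Between genotypes, within times, it differed by 0.01 (exact permutation test, two-sided p = 0.944), and by -0.16 without both 24 h replicate 2 arrays.

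**Figure D3:**
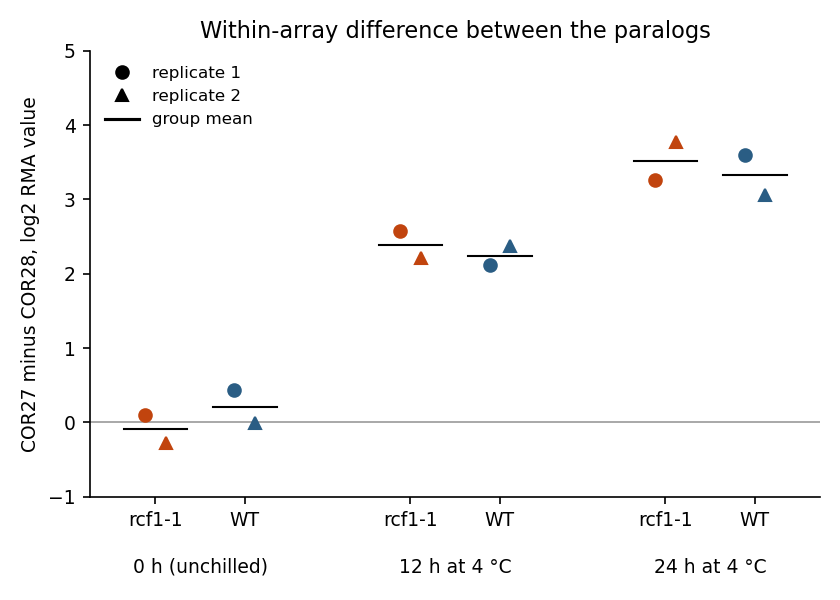
COR27 minus COR28 in log2 RMA values on each array, by genotype and time at 4 °C; circles are replicate 1, triangles replicate 2 and black lines group means. Unchilled arrays lie near 0, 12 h arrays between 2.11 and 2.57, and 24 h arrays between 3.06 and 3.77, with the genotypes overlapping in the chilled groups.

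The other genes of these pathways were taken from lists of known members, of which few were paired with a probe set. Of 24 circadian clock genes 2 were paired, of 16 light signalling genes 1, of 9 CBF regulators 1, of 14 other COR genes 5, and of 6 flowering time genes 0. RCF1, CBF1, CBF2, CBF3, CCA1, PRR5 and TOC1 were not analysed here. For the paired genes, the fit without both 24 h replicate 2 arrays is given by its differences only. Each genotype then has 1 array at 24 h. The calls that COR27 and COR28 gained in that fit are therefore not set against these genes.

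GI (GIGANTEA), an evening clock gene that promotes flowering, had a profile of the same kind. It read 4.86 to 5.02 at 0 h, 9.03 to 9.04 at 12 h and 7.63 to 7.83 at 24 h in rcf1-1. In WT it read 4.76 to 5.24 at 0 h, 9.60 to 9.76 at 12 h and 6.91 to 7.87 at 24 h. GI rose at 12 h in rcf1-1 (4.09 ± 0.30) and WT (4.67 ± 0.30), and fell from 12 h to 24 h, with differences of -1.31 ± 0.30 in rcf1-1 (adjusted p = 0.0409) and -2.29 ± 0.30 in WT (adjusted p = 0.00173). At 24 h the genotypes overlapped for GI, with a difference of 0.34 ± 0.30 (adjusted p = 0.593). That difference was -0.04 without both 24 h replicate 2 arrays, and the falls were then -1.21 in rcf1-1 and -1.81 in WT. AT5G52660, the other paired clock gene, rose at 12 h by 2.02 ± 0.27 in rcf1-1 and by 1.33 ± 0.27 in WT, and fell between 12 h and 24 h in WT, at -1.34 ± 0.27 (adjusted p = 0.0173). In rcf1-1 that change was -0.87 ± 0.27 and was not called (adjusted p = 0.114), and rcf1-1 minus WT at 24 h was 0.97 ± 0.27, also not called (adjusted p = 0.0539). When both 24 h replicate 2 arrays were left out, AT5G52660 changed by -0.62 in rcf1-1 and by -1.47 in WT, and its genotype difference at 24 h was 1.36.

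HYH, a bZIP factor related to HY5, took another course. Its 24 h minus 12 h difference was 0.54 ± 0.29 in rcf1-1 and 0.82 ± 0.29 in WT, neither of them called. In WT it was raised over 0 h by 1.61 ± 0.29 at 12 h and by 2.42 ± 0.29 at 24 h. In rcf1-1 it was raised by 1.298 ± 0.293 at 24 h (adjusted p = 0.0101), while its 12 h difference of 0.76 ± 0.29 was not called. At 24 h rcf1-1 minus WT was -0.64 ± 0.29 for HYH (adjusted p = 0.248), below 0 where it was above 0 for COR27. The genotype difference in its 24 h response was -1.13 ± 0.41 (adjusted p = 0.266). With both 24 h replicate 2 arrays left out, HYH differed at 24 h from 0 h by 1.02 in rcf1-1 and 2.38 in WT. Its 24 h minus 12 h differences were then 0.26 in rcf1-1 and 0.78 in WT. In the same fit rcf1-1 minus WT at 24 h was -0.87, and the genotype difference in the 24 h response was -1.36.

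STZ, a zinc finger gene of the cold and drought response, fell between 12 h and 24 h in WT, at -2.15 ± 0.29 (adjusted p = 0.0021). In rcf1-1 the change was -1.12 ± 0.29 (adjusted p = 0.0683). At 24 h STZ read 7.93 and 7.20 in rcf1-1, against 5.77 and 5.66 in WT, and the difference of 1.85 ± 0.29 was called (adjusted p = 0.00432). At 0 h it read 5.51 and 5.11 in rcf1-1, against 3.39 and 4.06 in WT, a difference of 1.59 ± 0.29 that was not called (adjusted p = 0.116). The genotype difference in the 24 h response of STZ was 0.26 ± 0.42 (adjusted p = 0.873). The genotype difference in its 12 h to 24 h change was 1.02 ± 0.42 (adjusted p = 0.453). In the fit without both 24 h replicate 2 arrays, rcf1-1 minus WT at 24 h was 2.16. The 12 h to 24 h change was then -0.76 in rcf1-1 and -2.09 in WT, with a genotype difference of 1.33.

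The 5 other paired COR genes were raised over 0 h in both genotypes at 12 h and at 24 h. They are COR15A and COR15B, whose chloroplast proteins protect membranes, the dehydrin genes COR47 and LTI30, and TIL, a temperature-induced lipocalin. From 12 h to 24 h their differences were below 0 for 4 of the 5 in rcf1-1, with a median of -0.16 on the log2 scale, and for 5 of the 5 in WT, with a median of -0.61, where the median of all probe sets was 0.01 for each genotype. Called falls were 0 of the 5 in rcf1-1, where 3.19% of all probe sets were called, and 1 of the 5 in WT, where 4.62% were. That 1 was LTI30, at -1.44 ± 0.30 in WT (adjusted p = 0.0216). The corresponding changes of COR27 were -1.39 in rcf1-1 and -3.32 in WT. For rcf1-1 minus WT at 24 h, 0 of the 5 were called where 7.5% of all probe sets were, with a median of 0.46 and a range from -0.12 to 1.08. Nothing is read from counts this small against such shares. After removal of both 24 h replicate 2 arrays, the 5 had a median change from 12 h to 24 h of 0.09 in rcf1-1, from -0.11 to 0.32. In WT the median was then -0.16, with a range from -0.92 (LTI30) to 0.17. For rcf1-1 minus WT at 24 h the median was then 0.34, with a range from -0.11 to 0.81 (LTI30). For the 5, the genotype difference in the 24 h response ran from 0.41 to 1.23 with all arrays. Without both 24 h replicate 2 arrays it ran from 0.30 to 1.24. In the 12 h to 24 h change it ran from -0.05 to 1.28 with all arrays and from -0.04 to 1.01 without both. The highest was LTI30 each time. With all arrays 0 of the 5 were called for the 24 h response, where 1.1% of all probe sets were. For the 12 h to 24 h change 0 of the 5 were, against 0.255%. COR15A, COR47 and LTI30 had 12 h means of 12.4 to 13.1, close to the array maxima, and COR15B and TIL of 11.4 to 11.7. Whether high signals limited the measured changes was not tested. Among the leaf markers, LHCB4.2 fell from 12 h to 24 h, at -1.44 ± 0.26 in rcf1-1 and -1.42 ± 0.26 in WT. These falls were -1.08 in rcf1-1 and -1.10 in WT without both 24 h replicate 2 arrays. Its genotype difference at 24 h was -0.33 ± 0.26 (adjusted p = 0.533), and its part in the results above was not tested.

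**Figure D4:**
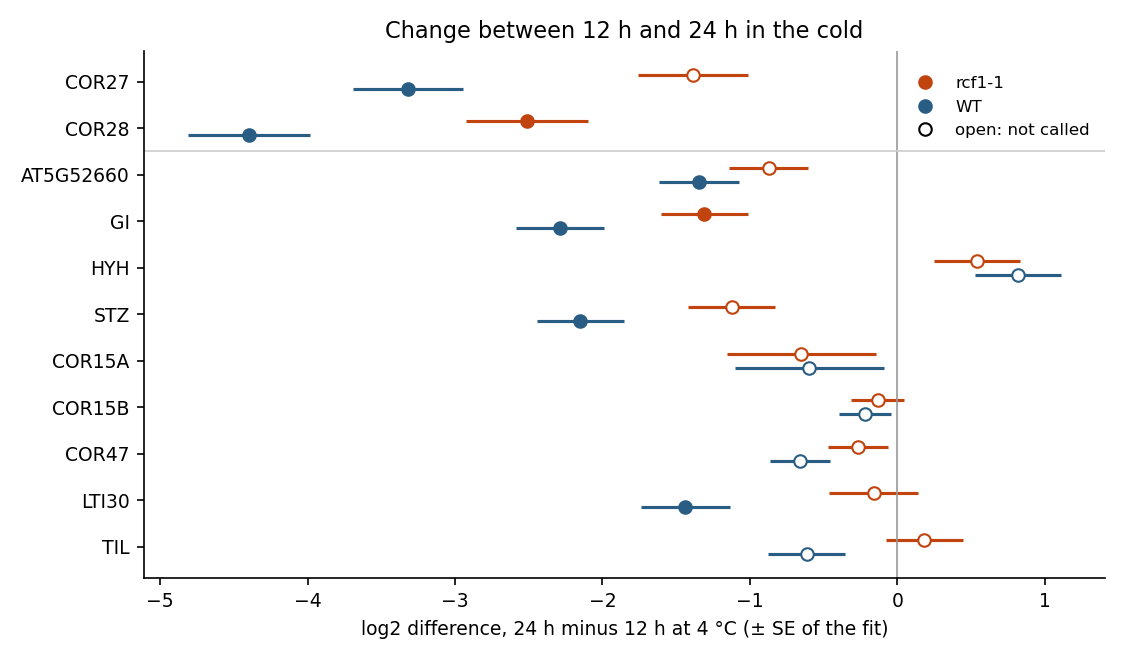
Log2 difference of 24 h minus 12 h at 4 °C for COR27, COR28 and the 9 other paired genes of the clock, light signalling, CBF regulator and COR lists, in rcf1-1 (orange) and WT (blue), with standard errors of the limma fit; filled points have an adjusted p under 0.05. COR28 and COR27 in WT lie farthest to the left. In the fit on all 12 arrays, the genotype difference in this change was not called for any gene shown, where 0.255% of all probe sets were called.

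The genes whose log2 values ran most like each member over the 12 arrays were ranked by Pearson's r among 974 probe sets with 1 annotated gene and group means spanning at least 2 log2 units. These values describe likeness in arrays that share 3 times and 2 deviating arrays. For COR27 the highest was AT4G34950 at r = 0.994, and the 10 ended at r = 0.983. They included UGT78D3, a flavonol glycosyltransferase gene, at r = 0.985, and SERPIN1, a protease inhibitor gene, at r = 0.984. AT4G34950 had group means of 8.50 in rcf1-1 and 7.14 in WT at 24 h, after 9.75 in rcf1-1 and 9.61 in WT at 12 h. Its genotype difference at 24 h was 1.36 and was not called in the limma fit (adjusted p = 0.123). These genes were chosen for likeness on the same arrays, so a similar gap is no separate result.

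For COR28 the highest was AT2G39920 at r = 0.989, followed by AT1G76590 and AT1G10410 at r = 0.987 and 0.986, and the 10 ended at r = 0.977. Of these 10, AT1G51090 and AT1G07050 had the widest genotype gaps at 24 h, with means of 7.39 in rcf1-1 and 4.99 in WT for AT1G51090, and 4.92 in rcf1-1 and 2.53 in WT for AT1G07050. COR27 and COR28 correlated with each other at r = 0.921, so that COR28 ranked 120 in likeness to COR27 and COR27 ranked 90 in likeness to COR28. The 2 sets of 10 shared 0 genes. By Spearman's rho in place of Pearson's r, 1 of the 10 stayed for COR27 and 2 for COR28, so the identity of the nearest genes depends on the measure. Without both 24 h replicate 2 arrays, 5 of the 10 stayed for COR27 and 7 for COR28.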

How the data were processed

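The authors deposited log2 values, 1 for each of 22810 probe sets on each of 12 arrays, and the submitters' processing notes name RMA. Which RMA program was run, and on which arrays together, is not given in the sources used here. Tests left out 64 controls. Array groups came from the sample titles.

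A mean per group was fitted with limma 3.58.1 in R 4.3.3 (lmFit on all 12 arrays, eBayes with a trend, 6 residual degrees of freedom). The 12 contrasts were two-sided and adjusted by Benjamini-Hochberg over 22746 probe sets, and a call is an adjusted p under 0.05. Standard errors pool the spread of all groups. The number of arrays limits the precision. The fit was tested on simulated data. Another 4 values were tested by exact permutation of array labels. The test of COR27 minus COR28 on chilled against unchilled arrays is not reported, because both genes were close to the lowest signals on the unchilled arrays. Alternatives tried were eBayes with no trend, dropping the dimmest 30% of probe sets by mean, other scalings, a replicate block, array weights, fewer arrays and a term for both 24 h replicate 2 arrays, which were known from earlier results to stand apart.

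Genes were named from the array annotation, with exactly 1 gene for 13513 probe sets, and the table of assembly TAIR10.1. Named genes are both members, the paired members of the lists, and the 10 nearest probe sets per member, of which a few are given. The members and lists were chosen with earlier results of these data known. Sequences were not used here.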

Additional observations from a re-analysis of the deposited data

How the results depend on the processing

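Of the 24 differences of COR27 and COR28, the rises over 0 h at 12 h in both genotypes, the rise of COR27 at 24 h in both, the rise of COR28 at 24 h in rcf1-1 and the falls of both genes from 12 h to 24 h in WT kept direction and call under every alternative run. Replicate numbers were not taken to pair the samples, since replicate differences correlated over 0.1 in 1 of 15 pairs of groups (the 24 h groups, r = 0.69). The replicate block changed no call, and with it COR27 at 24 h differed between rcf1-1 and WT by 1.67 (adjusted p = 0.0143). For the same difference array quality weights gave 1.67 ± 0.47 (adjusted p = 0.124) and the compared arrays alone 1.67 ± 0.52 (adjusted p = 0.481), without the call. The standard error of the main fit was 0.37. For COR28 it was called after removal of dim probe sets (1.48, adjusted p = 0.0438), after a second quantile normalization (1.63) and after median centring (1.55). From 12 h to 24 h in rcf1-1, COR27 was called after a second quantile normalization (-1.22, adjusted p = 0.0459) and with array quality weights (-1.39, adjusted p = 0.0497), and COR28 was not called with the compared arrays alone (-2.51, adjusted p = 0.194). Where calls were lost or gained with unchanged values, the standard error, its degrees of freedom or the adjustment had changed. The share of each was not tested.

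Without both 24 h replicate 2 arrays, newly called values were 1.98 for COR28 between genotypes at 24 h, 1.34 for COR28 at 24 h over 0 h in WT, and -0.89 for COR27 from 12 h to 24 h in rcf1-1. The genotype differences in the change from 0 h to 24 h were then 1.91 for COR27 and 1.93 for COR28, and in that from 12 h to 24 h 1.91 for COR27 and 2.38 for COR28. With a term for both arrays, the same values were also called. COR28 was then at 1.48 between genotypes at 24 h and at 1.59 for 24 h over 0 h in WT, and COR27 at -0.88 from 12 h to 24 h in rcf1-1. The genotype differences in the change were 1.93 for COR27 and 1.43 for COR28 from 0 h to 24 h, and 1.93 for COR27 and 1.88 for COR28 from 12 h to 24 h. The number of called probe sets for rcf1-1 against WT at 24 h was 1706, and 17 to 5426 over the alternatives. For the other 11 contrasts it also moved by over 1.5 times under some alternative, at 0 h from 2 to 1216 around 25 and at 12 h from 23 to 3874 around 307.

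Leaving out 1 array at a time gave 1.15 to 2.20 for COR27 and 0.73 to 2.23 for COR28 between genotypes at 24 h, and -1.89 to -0.89 for COR27 and -3.27 to -1.76 for COR28 from 12 h to 24 h in rcf1-1. For the genotype difference in the 24 h response it gave 1.40 to 2.45 for COR27 and 0.68 to 2.19 for COR28, and for that in the 12 h to 24 h change 1.41 to 2.45 and 1.13 to 2.64. Differences near 0 changed sign. Between genotypes at 0 h COR28 ranged from -0.18 to 0.28, and the COR27 difference in the 12 h response from -0.17 to 0.16, with 0.089 after median centring. The genotype difference of COR27 minus COR28 ranged from -0.076 to 0.102, with -0.063 after a second quantile normalization and -0.16 without both 24 h replicate 2 arrays.

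For the other paired genes, leaving out both 24 h replicate 2 arrays was an alternative chosen after seeing the data. Signs changed for GI between genotypes at 24 h (-0.042), LTI30 from 12 h to 24 h in rcf1-1 (0.087) and LHCB4.2 in the genotype difference of that change (0.017), and for COR15A from 12 h to 24 h, at 0.13 in rcf1-1 and 0.17 in WT against -0.65 and -0.60 with all arrays.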
